A study of Mus musculus with 4 samples.

Results

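Broad accessible sites were the sites of the immortalized fibroblast ATAC-Seq table that were at least 1200 bp wide on an autosome. There were 2383 of them among 80465 autosomal sites, or 2.96%, and they covered 8.14% of all bases in autosomal sites. Their median width was 1362 bp, and the widest measured 2593 bp. The assay, ATAC-Seq, uses the transposase Tn5 to cut exposed DNA and leave sequencing adapters there. Width was the only criterion, and the values in the libraries played no part in it beyond the peak calling that set each site's edges.

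The cells were mouse embryonic fibroblasts of a C57bl6 background, immortalized with SV40 T antigen and grown in DMEM with fetal bovine serum. The 2 groups were HAT1+/+ (WT) and HAT1-/- (KO), with no other treatment, and each held 2 libraries from separate lines derived from mid-gestation embryos. HAT1 is the acetyltransferase that modifies histone H4 before it is placed on new DNA. All 4 lines carry the viral antigen, and a difference of 1 line from the rest cannot be told apart from its own history in culture. Values are normalized counts, which are read counts scaled by library and rounded.

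Open chromatin in mammalian cells falls into a few kinds. Promoters of widely used genes often lie in CpG islands, where the dinucleotide CG is kept at high density, nucleosomes are displaced over a long stretch and transcription may leave in both directions. Enhancers are usually shorter and lie far from transcription start sites (TSSs). In fibroblasts many of them hold the sequence bound by AP-1, the dimer of Fos and Jun proteins that responds to growth factors and stress.

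The sequences below, from the mouse genome build mm10, show both kinds among the broad sites. The first pair is the 250 bases upstream of the TSS of Jun and of Jund, which encode AP-1 subunits, shown because they are typical CpG-rich members with high values. Capitals mark CG dinucleotides, of which Jun had 15 and Jund 33. The Jun window is chr4:95052223-95052472 on the minus strand and the Jund window is chr8:70698699-70698948 on the plus strand.
Jun: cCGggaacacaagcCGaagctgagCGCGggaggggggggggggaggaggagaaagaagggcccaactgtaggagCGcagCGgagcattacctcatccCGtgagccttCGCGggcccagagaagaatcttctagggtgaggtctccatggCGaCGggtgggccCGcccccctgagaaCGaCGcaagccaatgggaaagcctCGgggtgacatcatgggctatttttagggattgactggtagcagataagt
Jund: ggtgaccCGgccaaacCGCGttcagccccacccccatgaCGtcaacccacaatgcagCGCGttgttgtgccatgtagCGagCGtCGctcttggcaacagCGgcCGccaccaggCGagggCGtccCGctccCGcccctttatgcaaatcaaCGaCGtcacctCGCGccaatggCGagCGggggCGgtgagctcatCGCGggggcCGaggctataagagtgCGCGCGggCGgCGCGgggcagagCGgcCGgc
The next pair is the central 300 bases of 2 members far from any promoter, shown with the AP-1 sequence TGANTCA in capitals. One lay in an intron of the noncoding gene Pvt1 at chr15:62287022-62287321 and had the highest value of all distal members. The other lay in an intron of Lrrtm3 at chr10:64076467-64076766 and was 1 of the 7 members called lower in KO by the test described below.
Pvt1: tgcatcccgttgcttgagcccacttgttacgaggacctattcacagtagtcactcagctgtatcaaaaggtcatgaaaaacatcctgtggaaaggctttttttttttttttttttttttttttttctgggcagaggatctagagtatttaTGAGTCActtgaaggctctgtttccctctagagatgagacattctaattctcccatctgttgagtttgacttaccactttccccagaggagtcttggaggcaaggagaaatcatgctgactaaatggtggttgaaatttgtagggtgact
Lrrtm3: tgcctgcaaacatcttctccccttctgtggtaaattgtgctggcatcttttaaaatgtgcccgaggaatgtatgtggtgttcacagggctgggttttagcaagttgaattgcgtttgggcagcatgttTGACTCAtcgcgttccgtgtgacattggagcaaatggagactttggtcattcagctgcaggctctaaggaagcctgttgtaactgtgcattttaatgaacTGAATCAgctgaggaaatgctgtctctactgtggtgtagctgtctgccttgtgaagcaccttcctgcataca
The last set is the central 300 bases of the 3 members with the largest differences between genotypes, with CG in capitals. They lay at chr7:48137946-48138245 near Mrgprb5, at chr4:68788983-68789282 in an intron of Brinp1, and at chr1:192745900-192746199 inside Hhat. The Mrgprb5 window held 8 CG and the other two held 1 each, and none held TGANTCA.
Mrgprb5: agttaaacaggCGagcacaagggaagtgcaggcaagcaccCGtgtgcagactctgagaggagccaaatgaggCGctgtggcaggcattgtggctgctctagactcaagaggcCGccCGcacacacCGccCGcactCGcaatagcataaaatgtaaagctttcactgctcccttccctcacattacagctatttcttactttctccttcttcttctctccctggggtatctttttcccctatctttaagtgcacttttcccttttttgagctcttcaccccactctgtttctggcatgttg
Brinp1: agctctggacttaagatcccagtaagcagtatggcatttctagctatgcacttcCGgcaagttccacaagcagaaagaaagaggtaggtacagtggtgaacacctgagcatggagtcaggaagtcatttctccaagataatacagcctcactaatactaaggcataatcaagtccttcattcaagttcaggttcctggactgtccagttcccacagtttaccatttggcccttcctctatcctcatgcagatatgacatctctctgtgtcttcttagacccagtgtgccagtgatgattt
Hhat: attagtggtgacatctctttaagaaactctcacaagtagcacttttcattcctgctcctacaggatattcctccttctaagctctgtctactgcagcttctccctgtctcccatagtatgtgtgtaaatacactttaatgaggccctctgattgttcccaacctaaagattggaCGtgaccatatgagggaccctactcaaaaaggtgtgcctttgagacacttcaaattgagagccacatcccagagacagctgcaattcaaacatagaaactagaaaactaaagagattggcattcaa

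Broad sites were mostly promoters. A site was called a promoter site when its centre lay within 3 kb of an annotated TSS, and 1997 of 2383 broad sites did, or 83.8%, against 34.4% of all autosomal sites. The median distance from centre to TSS was 196 bp, against 7282 bp for all autosomal sites. Of the other broad sites, 193 were intergenic, 182 intronic and 11 exonic. A TSS of a protein-coding gene lay inside 76.6% of broad sites, against 15.6% of all autosomal sites.

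Many broad sites held the starts of more than 1 gene. TSSs of 2 or more protein-coding genes lay within 274 broad sites, or 11.5%, against 1.40% of all autosomal sites. In 252 of them the genes ran on both strands, as at the site of 1835 bp shared by Fam72a and Srgap2, the latter a regulator of cell shape. Cep57, a centrosome gene, and Fam76b shared another of 1810 bp.

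The sequence of broad sites was that of CpG islands in most cases. The central 300 bases had a median GC content of 66.0%, against 48.3% for all autosomal sites, and a median observed to expected CpG ratio of 0.799, against 0.240. Of broad sites, 68.9% had at least 50% GC together with a ratio of at least 0.6, against 15.5% of all autosomal sites. The share was 80.7% among promoter members and 7.77% among distal members. Repeats masked in the reference took 7.62% of the bases of broad sites on average and 12.4% in all autosomal sites.

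Motifs were searched on both strands of the central 300 bases and are a description of letters, not of binding. The Sp/KLF-type sequence GGGCGGGG was in 23.2% of broad sites and 6.09% of all autosomal sites. The AP-1 sequence TGANTCA was in 6.97% of broad sites and 37.7% of all autosomal sites. The consensus of CTCF, the factor that stalls loops of chromatin, was in 0.504% and 4.45%. GGAATG, the core bound by TEAD factors, was in 12.04% and 24.7%, and CCAAT was in 23.1% and 32.4%. CCGGAAGT, bound by Ets factors, was in 2.52% and 1.28%, the E-box CACGTG in 6.38% and 5.01%, and TGACGTCA, bound by CREB factors, in 1.43% and 0.846%.

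A centre of 300 bases is a smaller piece of a broad site than of a narrow one, so TGANTCA was also counted over whole sites. Distal broad sites held it in 23.6% of centres, against 48.3% of distal sites of 300 to 600 bp. Over their full width, 73.3% of the 386 distal broad sites held at least 1 match, against 51.3% of distal sites of 300 to 600 bp. Per kb of site there were 1.07 and 1.54 matches, so the sequence was less dense in the broad distal sites by both measures that allow for length. In broad promoter sites there were 0.258 matches per kb.

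These features changed gradually with width and not at 1200 bp. The share of promoter sites rose from 25.5% of sites under 300 bp to 70.7% of those of 900 to 1199 bp and 100% of the 48 sites of 2000 bp or more. The share with TGANTCA in the centre was 44.0% at 300 to 599 bp, 12.9% at 900 to 1199 bp and 2.08% in the widest class. The 174 sites of 1200 to 1219 bp had a median value of 334 and the 221 sites of 1180 to 1199 bp one of 322.5. Just inside the limit, at 1200 bp, was the promoter of Gna11 with 432 and 423 in WT and 451 and 586 in KO. Just outside, at 1199 bp, was the promoter of Mink1 with 390 and 322 in WT and 355 and 346 in KO.

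**Figure D1:**
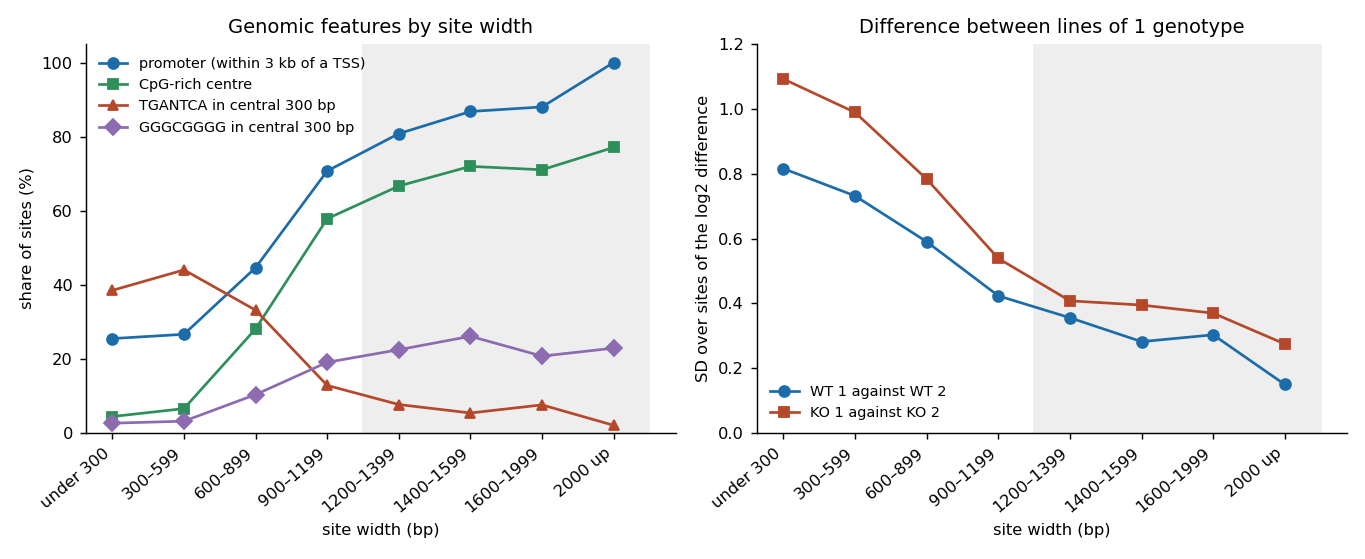
Left, the share of autosomal sites (%) with each genomic feature by class of site width in bp; right, the SD over sites of the log2 difference between the 2 lines of 1 genotype. Grey marks the broad sites. Promoter share reaches 100% and the SD between WT lines falls to 0.150 in the widest class, from 0.816 under 300 bp.

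Broad sites were also the strong sites. The mean over the 4 libraries had a median of 406.5 normalized counts, with a range of 61.75 to 1665.5. All 2383 lay above the median of all sites, 52.0, and 878 lay above the highest of the 41926 autosomal sites of 300 to 600 bp. Per kb of width the median was 289, against 119 for all autosomal sites, so the difference was not of length alone. The edges came from peaks called in these same libraries, so width and value are not independent measures of a site. Among broad sites the Spearman correlation across sites of width with value was 0.299 and of width with value per kb 0.0215.

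The widest site, 2593 bp at chr9:124422826-124425418, covered the start of Ppp2r3d and was also the highest. Its values were 1466 and 1401 in WT and 1458 and 2337 in KO, with KO replicate 2 alone standing apart. The next by width was at Alyref2, with 1122 and 1106 in WT and 1622 and 1370 in KO. The promoters of Cdc14a, a phosphatase gene, and Nrp1, a receptor for semaphorins and VEGF, followed at 2434 and 2396 bp. The other 6 of the 10 widest were at Chst2, Malat1, Tiparp, Nedd4l, Klf16 and Man2a1. At Malat1, an abundant nuclear noncoding RNA, the site lay 2564 bp downstream of the TSS and had 729 and 900 in WT against 1335 and 911 in KO.

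The other 8 of the 10 highest members lay at the promoters of Fam72a and Srgap2, Plec, Gsk3b, Cep57 and Fam76b, Egr1, Jun, Rab40c and Sap130. Plec, which encodes a linker of the cytoskeleton, had 1141 and 1174 in WT and 1622 and 1433 in KO. Gsk3b, the kinase of Wnt and insulin signalling, had 1172 and 1264 in WT and 1307 and 1624 in KO. Egr1, an immediate early gene, had 1232 and 1274 in WT and 1327 and 1212 in KO. Both KO lines were above both WT lines at Plec and Gsk3b, while the groups overlapped at Egr1.

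The 10 members over 10 kb from any TSS with the highest values lay nearest the protein-coding genes Myc, Crabp1, Gvin1, Sgk1, Plekho2, Trim56, Asap1, Trib1, Irf2bp2 and Zfp827. The Pvt1 site, 299.7 kb from the start of Myc, had 767 and 934 in WT and 1063 and 1068 in KO. A site 91.5 kb from Sgk1, a kinase gene induced by serum, had 663 and 828 in WT and 1033 and 940 in KO. Both were higher in both KO lines than in both WT lines, by 0.33 ± 0.10 and 0.41 ± 0.12 on the log2 scale (SE, n = 2 per group), with unadjusted limma p of 0.0172 and 0.0136 and adjusted p of 1. The site 21.6 kb upstream of Gvin1, an interferon-inducible gene with near-identical copies, had 540 and 879 in WT and 806 and 1486 in KO, and its groups overlapped.

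Genes of several lists relevant to fibroblasts were looked up for a broad site within 3 kb of a TSS. Of 20780 autosomal protein-coding genes, 2205 had one, or 10.6%. Among the 14287 genes with a site of any width the share was 15.4%. Among AP-1 factors 3 of 9 did, among mesenchymal transcription factors 7 of 18, among matrix genes 5 of 15, among SRF and YAP target genes 4 of 16, and among growth factor and receptor genes 3 of 12. Among Hox genes 2 of 39 did and among ribosomal protein genes 4 of 78. Every gene of the AP-1, matrix, SRF and YAP, and growth factor lists had a site of some width, as did 17 of 18 mesenchymal factors. For them 15.4% is thus the closer comparison. These short lists are given as counts and were not tested. None of their broad sites was called different between genotypes by the rule given below.

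Jun had 1101 and 1210 in WT and 1275 and 1338 in KO, and Jund 732 and 686 in WT and 845 and 892 in KO. Atf3, a stress-induced partner of Jun, had 796 and 637 in WT and 719 and 854 in KO, where the groups overlapped. Of the mesenchymal factors, Foxc2 had 576 and 534 in WT and 589 and 420 in KO, and Runx1 had 492 and 486 in WT and 547 and 379 in KO. Snai2, a repressor of epithelial genes, had 372 and 361 in WT and 386 and 380 in KO. The groups overlapped at Foxc2 and Runx1, and at Snai2 both KO values were just above the WT values.

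Thbs1, which encodes the matrix protein thrombospondin 1, had a site of 1992 bp with 934 and 985 in WT and 1015 and 985 in KO. Fn1, the fibronectin gene, had 602 and 675 in WT and 610 and 701 in KO. Ccn2, a matricellular target of YAP, had a site of 2221 bp with 1008 and 889 in WT and 1321 and 1101 in KO, a log2 difference of 0.35 ± 0.11 (SE, n = 2 per group) with an unadjusted limma p of 0.0168 and an adjusted p of 1. Tgfbr2, a receptor for TGF-beta, had 462 and 492 in WT and 463 and 495 in KO. Ccn2 thus had separate groups, and the other 3 did not.

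In the pathway of HAT1 itself, 2 of 7 autosomal genes of HAT1 and its histone chaperones had a broad site. Nasp, a chaperone of H3 and H4, had 526 and 505 in WT and 563 and 529 in KO. Asf1a, which hands H3 and H4 to assembly factors, had 422 and 402 in WT and 444 and 556 in KO. The promoter site of Hat1 was 1080 bp and thus no member. It had 390 and 384 in WT and 438 and 368 in KO, which does not check the deletion, since accessibility of a promoter is not expression.

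The labelled cell type was checked against sites within 3 kb of marker genes. Of 12 fibroblast markers 11 had a site, with summed values of 2594 to 3085 in the 4 libraries, and 2 of them, Twist1 and Vim, had a broad one. None of the epithelial, endothelial, blood, neural or pluripotency markers had a broad site. Among all autosomal protein-coding genes with a site 15.4% had a broad one, and among fibroblast markers with a site 18.2%. Broad sites in such short lists therefore show little about cell type. Sums were 77 to 104 for blood, where 4 of 6 genes, Ptprc and Spi1 among them, had no site. They were 135 to 271 for epithelium, where 4 of 7 genes had a site, and 226 to 349 for endothelium, with 4 of 6. For the neural list they were 423 to 488, with 5 of 6, and for the pluripotency list 29 to 99, with 1 of 5. The lists differ in length, so their sums are not directly comparable. Estimated depth was 9430000 and 11400000 reads in sites for the WT libraries and 7830000 and 5680000 for the KO libraries. In bulk libraries, fewer cells with an open site and less opening per cell cannot be told apart.

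To ask whether broad sites lost accessibility without HAT1, each site was tested with limma on log2(value + 1) over all 82325 sites. The call required p below 0.01 before adjustment and a change of at least 1 on the log2 scale in either direction. Among broad sites 8 of 2383 were called, or 0.336%, against 0.373% of all sites. Of these, 7 were lower in KO and 1 was higher, against 0.302% and 0.0705% of all sites. The share called was thus near that of all sites. No site in the table had an adjusted p below 1.

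The broad site with the largest fall lay at chr7:48137477-48138713, intergenic and 30.9 kb from Mrgprb5, a gene of the Mas-related receptor family. It had 183 and 160 in WT and 11 and 14 in KO, a log2 fold change of -3.68 ± 0.35 (SE, n = 2 per group) with an unadjusted limma p of 3.02e-05. Next was the site in an intron of Brinp1 at chr4:68788511-68789754, a gene known from neurons, with 274 and 452 in WT and 23 and 38 in KO. Its log2 fold change was -3.53 ± 0.38 (SE, n = 2 per group) with an unadjusted limma p of 7.21e-05. Both were low in each KO line and both stayed called whichever library was left out.

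The other 5 falls were smaller. A site 2.80 kb downstream of the TSS of Adamts5, a gene for an aggrecan-cutting protease of the matrix, had 235 and 343 in WT and 121 and 75 in KO. An intergenic site 235 kb from Irx1, a homeobox gene, had 244 and 268 in WT and 139 and 66 in KO. The site in an intron of Mthfd1l, an enzyme gene of mitochondrial folate metabolism, had 177 and 131 in WT and 77 and 57 in KO. H2-Bl and the intron of Lrrtm3 had 202 and 219, and 189 and 227, in WT, against 104 and 96 in KO at both.

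H2-Bl belongs to the class I genes of the major histocompatibility complex, whose near-identical copies make the placement of reads uncertain, and the treatment of such reads was not given in the sources used here. The KO lines were below the WT lines at all 7 sites, by log2 fold changes of -1.04 to -3.68. The falls at Adamts5, Mthfd1l, H2-Bl and Lrrtm3 lost the call whichever library was left out. The fall near Irx1 kept it only without KO replicate 1. All 5 lost it with no intensity trend in limma. Without WT replicate 1, 2 members were called lower and 3 higher, without WT replicate 2 the counts were 2 and 2, and without KO replicate 2 they were 10 and 5.

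The 1 member called higher in KO lay at chr1:192745448-192746650 within Hhat, which encodes the acyltransferase of Hedgehog proteins, and 478 bp from the noncoding gene Gm22265. It had 103 and 96 in WT and 394 and 266 in KO. The log2 fold change was 1.69 ± 0.26 (SE, n = 2 per group) with an unadjusted limma p of 0.000487. Its 2 WT values were close together, and both KO values were above them. The call was lost without WT replicate 1 and without WT replicate 2, at unadjusted limma p of 0.0151 and 0.0173.

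**Figure D2:**
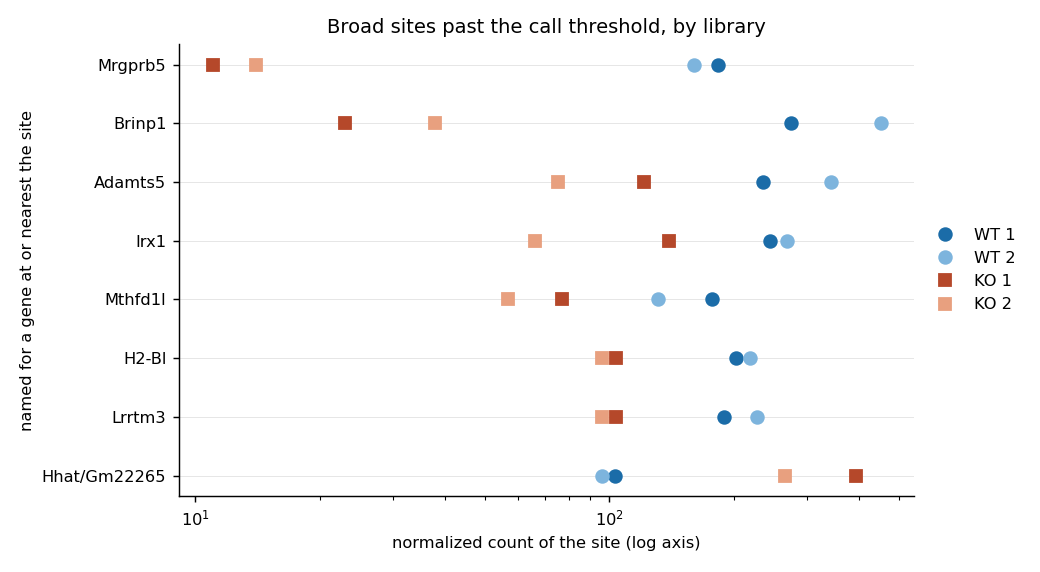
Normalized counts (log axis) of the 8 broad sites past the call threshold in each of the 4 libraries, 1 row per site. KO values lie left of both WT values in the upper 7 rows and right of them in the lowest row.

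Over all broad sites the balance ran the other way from the calls. Library medians were 404 and 389 in WT and 420 and 414 in KO. The median log2 fold change was 0.070, with quartiles of -0.047 and 0.184, against 0.006 over all sites. Both KO libraries were above both WT libraries at 682 broad sites, or 28.6%, and below them at 234, or 9.82%. Over all sites these shares were 14.6% and 14.3%. An unadjusted limma p under 0.05 was met by 196 broad sites, 161 higher and 35 lower, or 8.22%, against 3.13% of all sites. In the pairs of like value described below, the share under 0.05 was 6.33% for broad sites and 5.58% for narrow ones. With p under 0.01 and no fold threshold there were 37 higher and 10 lower among 2383. Over all sites there were 428 of 82325 in either direction, or 0.52%. Broad sites had higher values and differed less between lines of 1 genotype than all sites. The part of this in the shares of small p-values was not tested.

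The shift was small and depended on scaling. When the 4 library totals were made equal the median over broad sites was 0.0013, and after quantile normalization it was -0.076. Broad sites held 12.7% and 12.3% of the total of each WT library and 12.8% and 12.7% of each KO library. The means were 12.5 ± 0.333% in WT and 12.8 ± 0.0490% in KO (SD, n = 2 each). The difference of 0.268 percentage points had a two-sided exact permutation p of 0.667, where 0.333 is the smallest that 2 libraries against 2 can give.

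The log2 fold change of a broad site followed how dense its signal was, and not its width. Across broad sites its Spearman correlation with width was -0.0227. Broad sites were divided into 4 classes of equal size by normalized count per kb. In the class of lowest density, with a median of 172, the median log2 fold change was -0.046. In the following classes it was 0.026, 0.093 and, at a median of 460 per kb, 0.169. All 8 called members were in the lowest class. The count per kb was taken from the mean of the 4 libraries, so a fall in KO itself moves a site to a lower class. In the top class 9.06% of sites had a value below 0, against 58.9% in the lowest.

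The same order held among promoter members, from -0.060 to 0.164, and among distal members, from 0.057 to 0.227. All autosomal sites also followed it, from -0.246 to 0.108. By library, the median deviation of broad sites from the mean of the 4 values went from 0.078 to -0.080 in WT replicate 1 and from -0.072 to 0.126 in KO replicate 2. It went from -0.001 to -0.089 in WT replicate 2 and from 0.018 to 0.030 in KO replicate 1. Over all autosomal sites other libraries moved most, WT replicate 2 from 0.262 to -0.045 and KO replicate 1 from -0.209 to 0.035. KO replicate 2 was also the shallowest library, and the part of depth in this order was not tested.

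**Figure D3:**
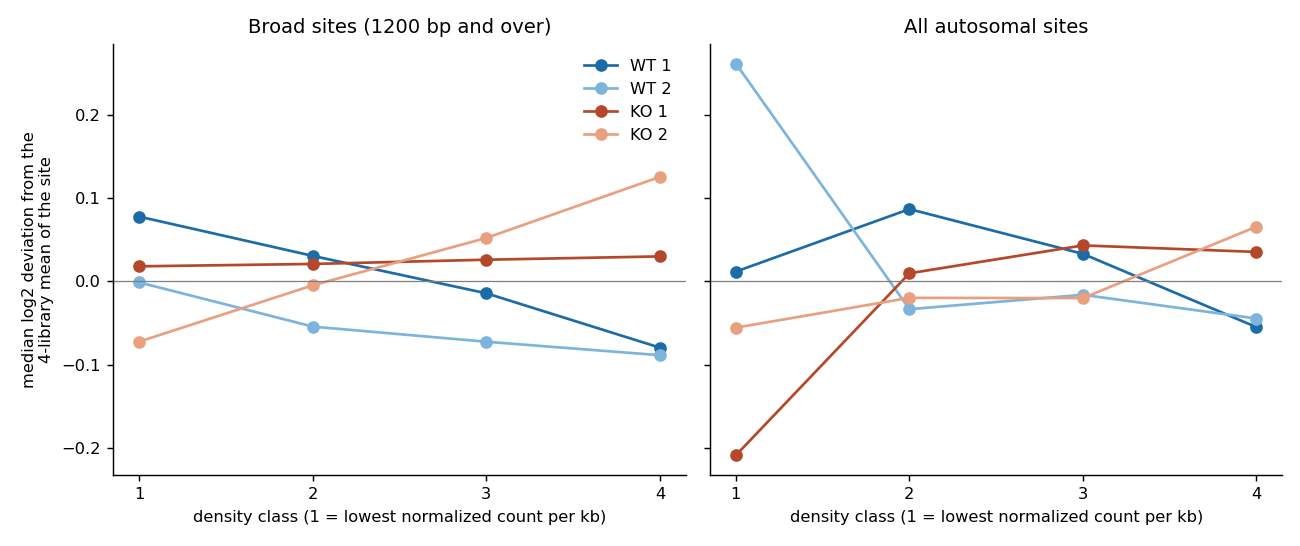
Median log2 deviation of each library from the mean of the 4 libraries at a site, for 4 equal classes of sites ordered by normalized count per kb; left, broad sites, right, all autosomal sites. In broad sites WT replicate 1 falls from 0.078 to -0.080 and KO replicate 2 rises from -0.072 to 0.126, while over all autosomal sites WT replicate 2 falls from 0.262 to -0.045 and KO replicate 1 rises from -0.209 to 0.035.

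At 386 distal members the median log2 fold change was 0.160, and the medians by library were 296 and 341.5 in WT and 356.5 and 341.0 in KO. At promoter members it was 0.061. The deviation of WT replicate 1 at distal members was -0.161, that of WT replicate 2 was 0.002, and those of KO replicates 1 and 2 were 0.090 and 0.079. Without WT replicate 1 the median at distal members was 0.075, without WT replicate 2 it was 0.244, and without either KO library it was 0.161 or 0.170. Both KO libraries were above both WT libraries at 30.8% of distal members and below them at 5.44%. Over all narrow distal sites these shares were 13.0% and 14.0%. In the pairs of like value described below, they were 20% and 11.2% for distal broad sites. For distal narrow sites of those pairs they were 40.2% and 0.929%. The median log2 fold changes there were 0.067 for distal broad sites and 0.201 for distal narrow ones. A rise at distal sites was thus not particular to broad sites.

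Broad sites were then compared with narrow sites of like signal. Each broad site was paired, widest first, with the unused autosomal site of 300 to 600 bp that was nearest in mean value, within 0.1 on the log2 scale. Only 663 broad sites had such a partner, as few narrow sites were that strong. Median values were 244 in the paired broad sites and 244.25 in the narrow ones, and median widths 1364 and 552 bp. The paired broad sites were therefore the weaker members, and per kb they had 177 against 453.

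At equal signal the 2 kinds of site still differed in sequence. The paired broad sites were promoters in 74.4% of cases and CpG-rich in 60.03%, against 51.3% and 25.04% of the narrow sites. TGANTCA was in the centre of 7.99% of the paired broad sites and 47.5% of the narrow sites. Away from promoters it was in 22.9% and 65.9%. Over whole distal sites there were 1.08 and 1.85 matches per kb, while 74.1% and 67.5% of these sites held at least 1 match. The nearest other site was at a median of 7.49 kb from a paired broad site and 1.45 kb from a narrow one.

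The paired broad sites had a median log2 fold change of -0.042 and their narrow partners one of 0.185, a difference of -0.227. Both KO libraries were above both WT libraries at 64 of the 663 broad sites, or 9.65%, and at 268 of the narrow sites, or 40.4%. They were below at 136, or 20.5%, and at 14, or 2.11%. No narrow partner was called, against the 8 broad sites, all of which had a partner. These were the same 8 calls as above, and they made up 1.21% of the paired broad sites and 0.336% of all broad sites. Among all sites 0.373% were called. At that share a set of 663 sites would hold few calls, so their absence among the narrow partners shows little. The difference in median log2 fold change had the same sign without each of the 4 libraries, from -0.310 to -0.139.

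By library, broad minus narrow was 0.190 and 0.049 on the log2 scale in WT and -0.036 and -0.203 in KO. The means were 0.120 ± 0.099 and -0.119 ± 0.118 (SD, n = 2 each). Their difference of -0.239 had a two-sided exact permutation p of 0.333, which is the smallest the design can give. WT replicate 1 and KO replicate 2 lay farthest apart, and both line names carry the number 643, whose meaning was not given in the sources used here. When sites were paired on normalized count per kb, 2372 broad sites had a partner and the difference in median log2 fold change was -0.059. In that pairing both KO libraries were above both WT libraries at 28.4% of broad sites and 25.2% of narrow ones. They were below at 9.87% and 6.49%, so the wide gap in these shares was seen only when sites were paired on value. With the same 663 broad sites paired on count per kb, a comparison chosen after seeing the data, the medians were -0.042 and 0.033 and the difference was -0.075.

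**Figure D4:**
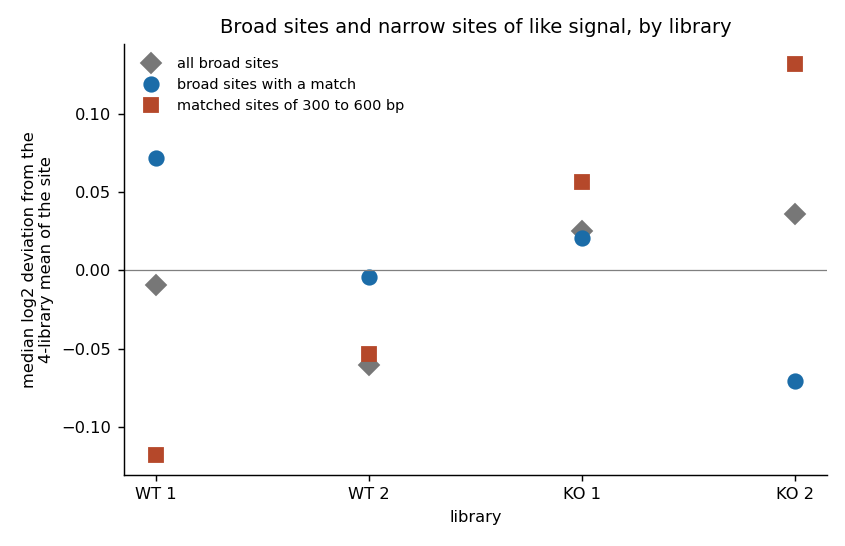
Median log2 deviation of each library from the mean of the 4 libraries at a site, for all broad sites, the 663 paired broad sites and their narrow partners. Paired broad sites run from 0.072 in WT replicate 1 to -0.071 in KO replicate 2, and narrow partners from -0.118 to 0.132.

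Most broad sites varied little among the lines, and a small set stood out in 1 line. The SD over sites of the log2 difference between lines of 1 genotype was 0.327 in WT and 0.397 in KO, against 0.702 and 0.939 over all sites. A library that was at least 2-fold from the mean of the other 3 was found at 75 broad sites, or 3.15%, against 25.5% of all sites, which had lower values. Among the paired sites of equal signal the order turned, with 63 broad sites, or 9.50%, against 13 narrow ones, or 1.96%. The SDs there were 0.493 and 0.599 for broad sites and 0.317 and 0.387 for narrow ones. In the 2372 pairs matched on normalized count per kb the order did not turn, with 3.16% of broad sites and 7.29% of narrow ones. The SDs in WT and KO were 0.328 and 0.397 for those broad sites and 0.473 and 0.574 for their partners. The order at like signal thus depended on how sites were paired.

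The members named next were chosen after their values were seen, as those with 1 line or 1 pair of lines apart. At Peg3, an imprinted gene expressed from the paternal allele, the site had 342 and 358 in WT, 34 in KO replicate 1 and 534 in KO replicate 2. At Tmtc2 KO replicate 1 had 39 beside 460 and 287 in WT and 361 in KO replicate 2. At the promoter of Slc16a7, a monocarboxylate transporter gene, the values were 122 and 131 in WT, 14 in KO replicate 1 and 117 in KO replicate 2. These 3 had log2 fold changes of -1.36 to -1.60 and were not called, since 1 KO line carried the whole difference.

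KO replicate 2 stood alone elsewhere. At Sorbs3, which encodes the adhesion protein vinexin, the values were 352 and 274 in WT, 345 in KO replicate 1 and 90 in KO replicate 2. Sall1, a developmental transcription factor gene, divided the lines across genotypes, with 310 and 24 in WT and 249 and 38 in KO. At 3110053B16Rik WT replicate 2 had 16 beside 229 in WT replicate 1 and 223 and 143 in KO. Near Fhl2, a LIM-domain cofactor gene, and Adgrg1, an adhesion receptor gene, KO replicate 1 was alone high, with 655 and 406 beside at most 228 and 108 in the other 3 lines. None of these differences followed genotype.

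Whole chromosomes also moved in single lines. Broad sites were most frequent on chromosome 19, with 115 of 2573 sites or 4.47%, and their median log2 fold change was 0.300. There KO replicate 1 deviated by 0.377, while KO replicate 2 deviated by -0.108, on the same side as the WT libraries at -0.086 and -0.161. On chromosome 15 the median was 0.212, with KO replicate 1 at 0.174. On chromosome 14 it was -0.088, with WT replicate 1 at 0.237. All sites of these chromosomes moved alike, with medians of 0.232, 0.117 and -0.180. These 3 were the autosomes whose median over all sites was at least 0.1 in either direction. Chromosome 12, at 0.094 over all sites, had 0.153 over broad sites, with WT replicate 1 at -0.137. On chromosome 7 KO replicate 2 was at 0.169 and WT replicate 1 at -0.131 in broad sites. Without the 3 chromosomes the 2098 remaining members had a median of 0.063 and the same number of calls, 8.

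**Figure D5:**
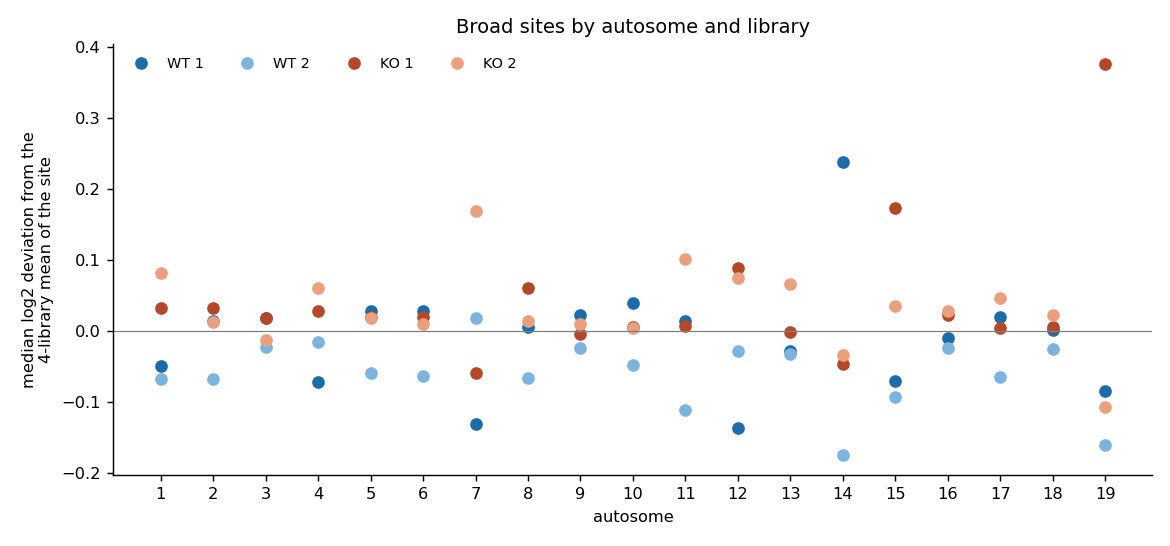
Median log2 deviation of each library from the mean of the 4 libraries at a broad site, by autosome. KO replicate 1 stands at 0.377 on chromosome 19 and 0.174 on chromosome 15, and WT replicate 1 at 0.237 on chromosome 14.

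The study defined HAT1-dependent accessibility domains (HADs) in primary mouse embryonic fibroblasts, as stretches less accessible in KO than in WT. They are found by averaging the log2 fold change over 25 neighbouring sites, keeping windows under -0.58 and joining those at most 1 Mb apart. Here the rule was applied to the fold changes of the immortalized lines, so the domains are not the study's own. The rule gave 170 domains with 3126 sites, or 3.80% of all sites, and 44 of the broad sites, or 1.85%. The rule uses the same fold changes, broad sites included, so what follows is a description. The median log2 fold change of the 44 broad sites was -0.00021, against -0.836 for the other sites in the domains. Values below 0 were seen at 22 of the 44, a log2 fold change of -1 or lower at 6, and the call at 1, the Brinp1 site. The 44 included 40 promoter sites, and their quartiles were -0.319 and 0.104. The KO lines went opposite ways, with median deviations of -0.089 in KO replicate 1 and 0.117 in KO replicate 2. Those of WT replicates 1 and 2 were 0.070 and -0.025. KO replicate 1 was below both WT libraries at 22 of the 44 sites and KO replicate 2 at 12.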

How the data were processed

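Immortalized MEF libraries (2 HAT1+/+ and 2 HAT1-/- lines) were numbered in accession order, which names lines and pairs none. Per the submitters' processing notes and methods, the authors aligned reads to mm10 with BWA 0.7.12, called peaks with MACS2 2.1.0 and tested sites with DESeq2. The deposited values are a score: the authors scaled counts by library and rounded them to whole numbers. Read filters and the Tn5 offset were not given in the sources used here. The deposited log2 fold changes and p-values hold the authors' own comparison and were not used.

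Sites were tested with limma 3.58.1 (R 4.3.3, intensity trend) on log2(value + 1), which understates changes of low sites, with Benjamini-Hochberg adjustment over 82325 sites. Because the values are not raw counts, no count test was run. Tested on simulated data with 82325 sites, the fit called 162 of the 200 that had been shifted by 2 on the log2 scale, along with 692 unchanged ones. In the real data it called 307 sites. The simulation gave every site the same spread between lines, while real broad sites varied less than all sites. Its counts therefore do not give the rate of missed or false calls among broad sites. Depth was estimated from gaps that scaling leaves among low whole numbers and is approximate. P-values measure only the spread between these lines.

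Annotation was GENCODE M21 on GRCm38.p6, with class and distance from the site centre. Sites named are the 10 widest, the 10 with the highest mean, those called, up to 4 per gene list, up to 10 over 10 kb from any TSS with the highest mean, and those at the width limit. Members, lists and tests were chosen with earlier results of these data known. Tables and figures were made in Python 3.11.15 with matplotlib 3.10.9, scipy 1.17.1, pandas 2.3.3 and numpy 2.4.6. Alternatives covered the pseudocount, a low-value filter, scaling, each library left out, width, pairing, chromosomes and the call rule.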

Additional observations from a re-analysis of the deposited data

Results flagged for a closer look

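Sites of at least 1200 bp on the X chromosome lay outside the comparison of autosomal sites. There were 37 of 1844 X sites, 94.6% of them promoter sites, and none was called by limma. Their library medians were 220 and 224 in WT and 228 and 266 in KO, and their median log2 fold change was 0.0042.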

How the results depend on the processing

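The number of broad sites called, 8, was most open to choice. It was 15 with a width of at least 1000 bp and 0 of 633 with at least 1500 bp, 47 with no fold threshold and 3 with no intensity trend in limma. Leaving out 1 library gave 4 to 15 calls, where the lone library of a genotype was assumed to vary like the other group. A pseudocount of 8 gave 7, equal totals 9, quantile normalization 10, and the filter on low values 8. The median log2 fold change of broad sites, 0.070, was 0.0013 with equal totals and -0.076 after quantile normalization, so its direction rests on the scaling. It lay between 0.049 and 0.098 with 1 library left out, the highest without WT replicate 1. Broad minus paired narrow, -0.227, became -0.059 when sites were paired per kb, -0.075 when the same 663 broad sites were paired per kb (chosen after seeing the data), and -0.212 when promoter class was also required. The difference in the share of signal was 0.033 to 0.504 percentage points with 1 library left out, lowest without WT replicate 2. The Mrgprb5 and Brinp1 sites stayed past the threshold in 9 of 9 alternatives, and the Hhat site in 7. No paired analysis was possible because the genotypes share only 1 number in their line names, 643 in WT replicate 1 and KO replicate 2, and the other lines are numbered 78 and 41. Depth limits the weaker members most, and KO replicate 2, with 276 estimated reads at the median broad site against 545 in WT replicate 2, is the least precise.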
